A study of Mus musculus with 6 samples.

Results

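Pericytes and vascular smooth muscle cells, together called mural cells, wrap the endothelium of capillaries and larger vessels. The 10 genes described here are Rgs5, Pdgfrb, Cspg4, Kcnj8, Abcc9, Notch3, Anpep, Vtn, Des and Acta2, which are in common use as mural cell markers. They were chosen by name, with earlier results of these data known, so counts of members set beside all clusters are descriptive only. Each was read by its transcript cluster (the group of probes that covers a transcript) annotated with that gene symbol alone. All 10 had exactly 1 such cluster, out of 19938 genes with a single-symbol cluster on the array. The samples were retinae of newborn mice (postnatal day 0) on a C57BL/6NTac background, 3 Meg2 knockout and 3 wild type, with both retinae of 1 animal pooled on each array per the labels. Meg2 is the tyrosine phosphatase encoded by Ptpn9, and the labels do not say which part of the gene was removed or whether the loss was confined to any cell type. Values are log2 signals, so a difference of 1 is a doubling, and a difference is always knockout minus wild type.

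Endothelial tip cells secrete PDGF-B, which recruits pericytes through the receptor PDGFRB as vessels sprout, and Notch signals from endothelium to the receptor NOTCH3 maintain mural cells. In the mouse, retinal vessels begin to grow out from the optic nerve head around birth, so mural cells are a small minority of cells in this tissue. Several of the markers are not private to mural cells: Des and Acta2 also serve other muscle cells, Anpep myeloid and epithelial cells, Cspg4 glial progenitors elsewhere in the nervous system.

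Ptpn9 read 9.31, 9.58 and 9.28 on the knockout arrays and 10.05, 9.93 and 9.94 on the wild-type arrays, lower on every knockout array. Neural retina markers read high on all arrays, with means over the 10 measured genes between 11.52 and 11.63. Arrays that shared a replicate number also shared their sex-linked signal: both replicate 2 arrays carried strong Xist signal (12.5 in each genotype) together with Y-linked signal (Eif2s3y at 7.66 and 7.76), although the labels give 1 animal per array. Replicate 1 arrays carried Xist with low Eif2s3y (5.08 and 5.49) and replicate 3 arrays the reverse. Results for the 10 members are therefore also given without both replicate 2 arrays, while those for other genes are not. In whole-tissue RNA, more cells of a type and more RNA per cell cannot be told apart.

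In the newborn retina the 10 members read mostly in the lower part of the array's range. As a measure of signal without expression, clusters of 1194 olfactory and vomeronasal receptor genes, which a retina should hardly transcribe, had a median log2 signal of 5.35 and a 95th percentile of 7.13. The means over 6 arrays of 9 members lay above that 95th percentile, from 7.27 for Kcnj8 to 9.28 for Pdgfrb. Kcnj8, Abcc9 (7.31) and Des (7.31) were only just above it. The mean of Anpep was 6.42, above 84.1% of the receptor clusters but under their 95th percentile. For comparison, the median over all 23410 tested clusters was 8.51. Clusters differ in how strongly their probes bind, so these levels do not order the genes by transcript number.

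Between genotypes, 4 members read higher in the knockout in every replicate number. For Rgs5, Anpep and Acta2 the lowest knockout array read above the highest wild-type array, and Abcc9 overlapped but was higher within each number. The other 6, among them the receptors Pdgfrb and Notch3 and the surface proteoglycan gene Cspg4, had differences between -0.068 and 0.084. None of the 10 passed correction over all tested clusters (limma, adjusted p = 0.9995 for each), and no cluster of the array did (0%). Without correction, 2 of 10 members, Rgs5 and Anpep, had a p under 0.05 and were higher, where 1.69% of all tested clusters did so (3.43% in either direction); 0 members were lower at that level, against 1.74% of clusters. With the replicate number as a block, 4 of 10 members were higher at that level, as Abcc9 and Acta2 joined, against 4.46% of clusters, and 0 were lower, against 4.36%. In that blocked fit too no member passed correction, beside 0.00427% of clusters (limma, lowest adjusted p among members 0.508). The median difference over the 10 members was 0.063, beside 0.0012 over all tested clusters, and 6 of 10 lay above 0, where 50.7% of clusters did.

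**Figure D1:**
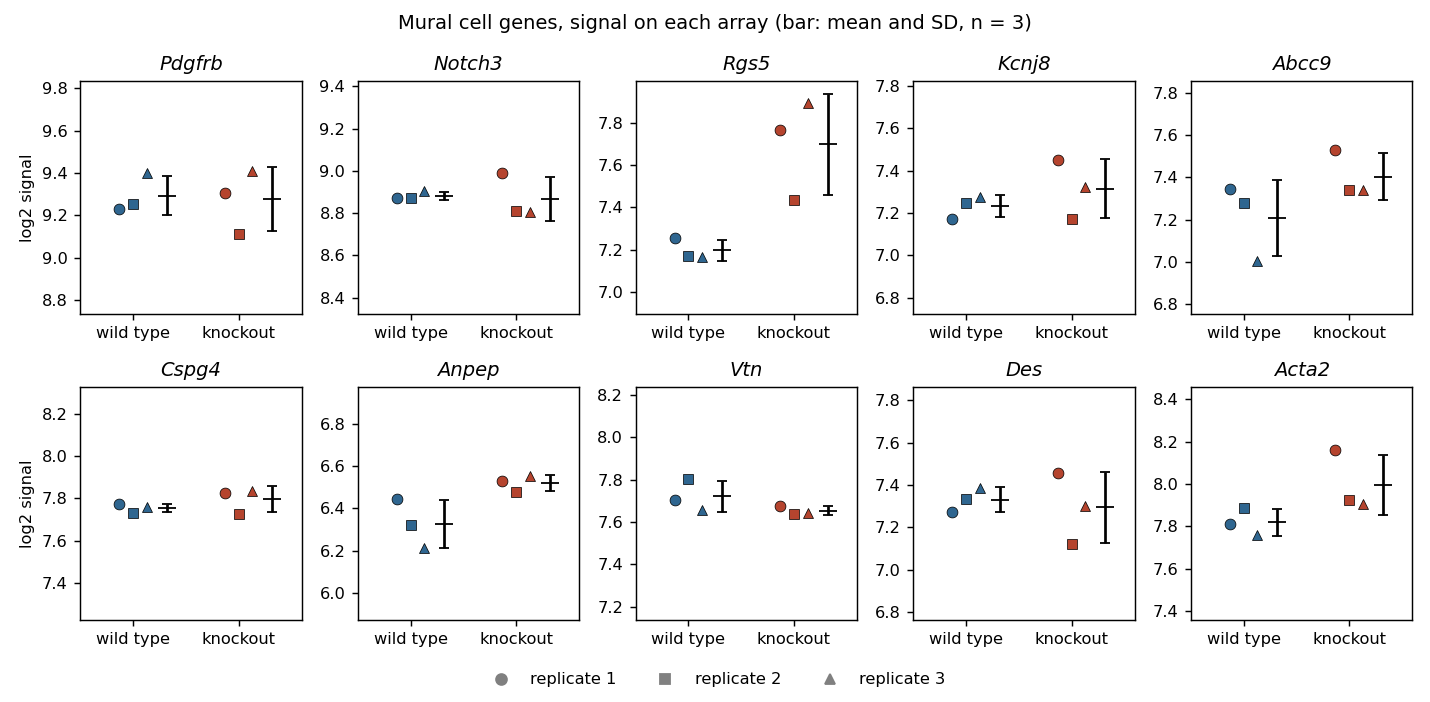
Log2 signal of each of the 10 genes on every array, wild type in blue and knockout in red, with the marker shape giving the replicate number and the bar the mean and SD of 3 arrays. Each panel spans the same log2 range around its own mean. Rgs5, Anpep and Acta2 have no overlap between genotypes, while in Pdgfrb, Notch3, Cspg4, Kcnj8 and Des the knockout arrays lie on both sides of the wild-type mean.

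Pdgfrb encodes the receptor tyrosine kinase for PDGF-B that mural cells depend on for recruitment. It read 9.31, 9.11 and 9.41 on knockout replicates 1, 2 and 3 and 9.23, 9.25 and 9.40 on the wild-type replicates. The knockout arrays held both the lowest and the highest value, so the genotypes overlapped fully. The means were 9.28 ± 0.15 and 9.29 ± 0.092 (SD, n = 3), and the difference was -0.016 (SE 0.087), with a 95% interval from -0.21 to 0.18. In linear terms that interval runs from 0.863-fold to 1.13-fold. Without both replicate 2 arrays the difference was 0.046.

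Notch3, the Notch receptor of vascular smooth muscle and pericytes, read 8.99, 8.81 and 8.81 in the knockout and 8.87, 8.87 and 8.90 in the wild type. The wild-type arrays lay close together, inside the knockout range. The difference was -0.013 (SE 0.067; 95% interval -0.17 to 0.14), and its sign depended on the array: without knockout replicate 2 it was 0.015, without knockout replicate 3 it was 0.018, and without both replicate 2 arrays it was 0.0094.

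Rgs5 showed the largest difference of the 10. It encodes a regulator of G protein signalling, a GTPase-activating protein that shortens signals of G protein-coupled receptors, and is among the most used pericyte transcripts. Knockout arrays read 7.76, 7.43 and 7.89, and wild-type arrays 7.26, 7.17 and 7.16. All 3 wild-type arrays stood within a narrow range and every knockout array above it, with knockout replicate 2 the nearest. The means were 7.70 ± 0.24 and 7.20 ± 0.051 (SD, n = 3), a 1.415-fold higher signal (log2 0.50, SE 0.11; 95% interval 0.25 to 0.75; limma, unadjusted p = 0.00134). The Rgs5 difference exceeded those of 99.9% of tested clusters. Within replicate numbers 1, 2 and 3 it was 0.51, 0.26 and 0.73, and without both replicate 2 arrays it was 0.62.

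Kcnj8 and Abcc9 encode the pore subunit Kir6.1 and the sulfonylurea receptor subunit SUR2 of the ATP-sensitive potassium channel of mural cells, which sets their resting potential and hence vessel tone. They are neighbours on chromosome 6 with 0 protein-coding genes between them in the RefSeq gene order. Abcc9 read 7.53, 7.34 and 7.34 in the knockout and 7.34, 7.28 and 7.00 in the wild type. Wild-type replicate 3 was the lowest array and knockout replicate 1 the highest, and the middle arrays of both genotypes met near 7.34. The difference was 0.19 (SE 0.098; 95% interval -0.027 to 0.42; limma, unadjusted p = 0.0781), or 0.093 without wild-type replicate 3. With the replicate block its unadjusted p was 0.0178 (limma). Kcnj8 read 7.45, 7.17 and 7.32 in the knockout and 7.17, 7.25 and 7.27 in the wild type. Knockout replicate 2 lay at the level of the lowest wild-type array, and the difference was 0.084 (SE 0.078; 95% interval -0.094 to 0.26). That Kcnj8 difference was 0.016 without knockout replicate 1, 0.15 without knockout replicate 2 and 0.16 without both replicate 2 arrays, where the Abcc9 difference was 0.26.

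Cspg4, which encodes the surface proteoglycan NG2, read 7.83, 7.73 and 7.84 in the knockout and 7.77, 7.73 and 7.76 in the wild type. The 2 genotypes met at the replicate 2 arrays, and the difference was 0.043 (SE 0.058; 95% interval -0.090 to 0.18). It ranged from 0.023 without knockout replicate 3 to 0.078 without knockout replicate 2, and was 0.067 without both replicate 2 arrays. Cspg4 lies on chromosome 9 close to the targeted gene, with 3 protein-coding genes (Snx33, Imp3 and Snupn) between it and Ptpn9 in the RefSeq order. Anpep encodes aminopeptidase N (CD13), a peptidase on the surface of pericytes. It read 6.53, 6.48 and 6.55 in the knockout and 6.44, 6.32 and 6.21 in the wild type. The knockout arrays were tightly grouped and the wild-type arrays were not, with wild-type replicate 1 just below the lowest knockout array. The difference was 0.19 (SE 0.071; 95% interval 0.034 to 0.35; limma, unadjusted p = 0.0230), a 1.14-fold higher signal, at a level where receptor clusters also read. Without both replicate 2 arrays the Anpep difference was 0.21.

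Vtn encodes vitronectin, a secreted adhesive glycoprotein that brain pericytes make and that also circulates from the liver. It was the 1 member with lower knockout signal within every replicate number, a pattern that 15.9% of tested clusters shared. Knockout arrays read 7.68, 7.64 and 7.64 and wild-type arrays 7.70, 7.80 and 7.66. The ranges overlapped between knockout replicate 1 and wild-type replicate 3, and the difference was -0.068 (SE 0.060; 95% interval -0.20 to 0.069), or -0.021 without both replicate 2 arrays.

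Des and Acta2 belong to the cytoskeleton of contractile cells. Des, the intermediate filament gene desmin, read 7.46, 7.12 and 7.30 in the knockout and 7.27, 7.33 and 7.39 in the wild type, so the knockout arrays reached both above and below the wild-type range. Its difference was -0.038 (SE 0.087; 95% interval -0.24 to 0.16), and 0.050 without both replicate 2 arrays. Acta2, smooth muscle alpha-actin, which marks arteriolar smooth muscle more than capillary pericytes, read 8.16, 7.93 and 7.90 in the knockout and 7.81, 7.89 and 7.76 in the wild type. Knockout replicate 1 stood apart above the rest, and the other knockout arrays lay just over the highest wild-type array. The difference was 0.18 (SE 0.080; 95% interval -0.0049 to 0.36; limma, unadjusted p = 0.0552), a 1.13-fold higher signal. It was 0.096 without knockout replicate 1 and 0.25 without both replicate 2 arrays, and with the replicate block the unadjusted p was 0.0342 (limma). Actins are close paralogs, so part of the Acta2 signal can come from other actin transcripts.

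**Figure D2:**
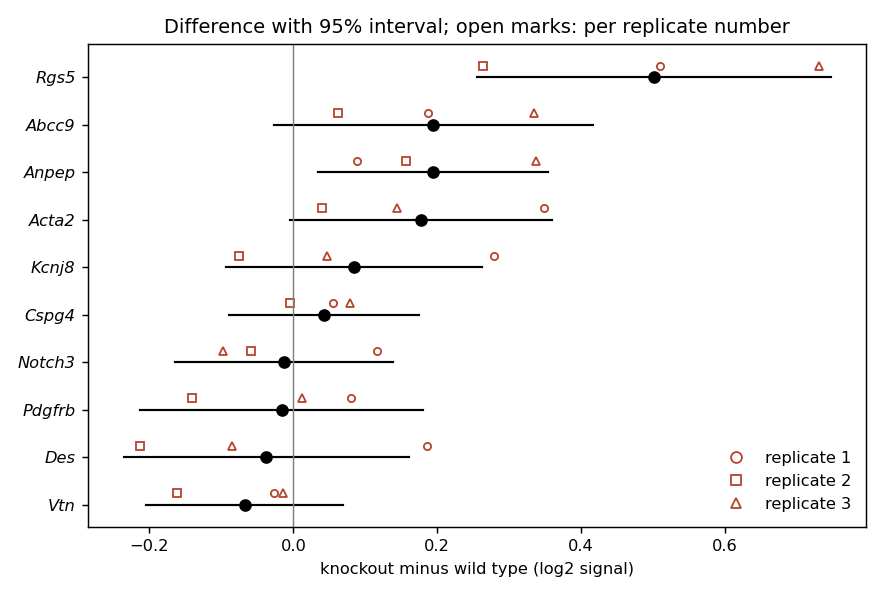
Knockout minus wild type on the log2 scale for the 10 genes, ordered by size: filled points are differences over 3 against 3 arrays, lines the unadjusted 95% intervals from limma, and open marks the differences within each replicate number. The intervals of Rgs5 and Anpep lie above 0 and those of the other 8 genes include it. The open marks of Rgs5, Abcc9, Anpep and Acta2 all lie above 0.

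Rgs5, Abcc9, Anpep and Acta2 were thus the 4 members with higher knockout signal in 3 of 3 replicate numbers, a pattern shown by 16.5% of tested clusters. Non-overlap with higher knockout signal, seen in 3 members, was found in 4.08% of tested clusters, and 0 members showed the lower pattern (4.35% of clusters). The mean difference over the 10 members was 0.18, -0.013 and 0.15 within replicate numbers 1, 2 and 3. In replicate number 1 the knockout array was the higher for 9 of 10 members, in number 3 for 7 and in number 2 for 4, where 49.6% to 51.2% of clusters were higher. Without both replicate 2 arrays, 5 members, now with Cspg4 and Kcnj8, had no overlap and were higher, against 14.4% of tested clusters for 2 against 2 arrays. Knockout replicate 2, left out there, was the lowest knockout array for 7 of 10 members, against 37.2% of clusters.

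The promoters of these 4 genes are shown because the genes were higher in the knockout in every replicate number. Each sequence is the 250 bases before the RefSeq transcription start (GRCm38.p6), written 5′ to 3′ along the gene. Capitals mark matches on either strand to TGGGAA, the core bound by the Notch effector RBPJ, or to CATTCC, the MCAT element bound by TEAD factors. The CArG box of serum response factor was searched as well, in its strict form and with at most 1 base off, and is not in capitals.
Rgs5, chr1:169655251-169655500, plus strand: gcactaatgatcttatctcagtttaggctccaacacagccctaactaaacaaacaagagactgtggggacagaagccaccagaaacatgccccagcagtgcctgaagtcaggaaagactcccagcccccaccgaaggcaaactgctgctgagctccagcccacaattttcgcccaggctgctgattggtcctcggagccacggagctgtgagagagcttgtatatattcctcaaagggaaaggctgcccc
Abcc9, chr6:142702275-142702524, minus strand: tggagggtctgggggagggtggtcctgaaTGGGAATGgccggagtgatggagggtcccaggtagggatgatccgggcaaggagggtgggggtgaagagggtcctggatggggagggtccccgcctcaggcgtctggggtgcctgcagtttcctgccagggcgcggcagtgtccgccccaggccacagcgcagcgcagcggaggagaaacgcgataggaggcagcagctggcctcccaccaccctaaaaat
Anpep, chr7:79848211-79848460, minus strand: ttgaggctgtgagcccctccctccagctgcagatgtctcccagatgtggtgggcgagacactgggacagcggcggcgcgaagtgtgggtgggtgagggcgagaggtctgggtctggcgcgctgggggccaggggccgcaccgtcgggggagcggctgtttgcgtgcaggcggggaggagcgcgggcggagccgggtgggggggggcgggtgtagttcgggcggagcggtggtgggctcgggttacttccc
Acta2, chr19:34255374-34255623, minus strand: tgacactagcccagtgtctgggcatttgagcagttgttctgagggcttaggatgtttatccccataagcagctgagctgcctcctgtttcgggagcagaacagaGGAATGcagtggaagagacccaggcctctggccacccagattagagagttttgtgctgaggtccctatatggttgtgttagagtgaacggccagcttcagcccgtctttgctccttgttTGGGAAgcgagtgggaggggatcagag
Promoter windows of 9 of the 10 members were searched. The window of Pdgfrb was not among them, so the counts below say nothing about that gene. TGGGAA occurred in 3 of these 9 (Abcc9, Vtn and Acta2), where 21.6% of all 32851 promoter windows of that length held it. CATTCC occurred in the same 3 genes, against 12.6% of windows. In Abcc9 and Vtn the 2 matches overlap each other, while in Acta2 TGGGAA lies at -27 to -22 and the CATTCC match at -146 to -141 from the start. In its strict form the CArG box was in 0 of the 9 windows and in 1.47% of all windows. With at most 1 base off it was in 3 of the 9, against 18.6% of all windows. Acta2, whose promoter is known for CArG elements, held 2 such matches, at -84 to -75 (ccctatatgg) and at -34 to -25 (ccttgtttgg), and Cspg4 and Kcnj8 held the others. The windows of Rgs5 and Anpep held no match to any motif searched, which says only that these letters are not in these bases.

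Genes that act with the members were read from lists. For scale, 50.7% of all tested clusters lay above 0. At an unadjusted p under 0.05 (limma), 1.69% were higher and 1.74% lower, and with the replicate block 4.46% and 4.36%. Of 22 measured other pericyte and mural genes, 18 lay above 0, with a median difference of 0.037. Of the 22, 8 read under the 95th percentile of the olfactory and vomeronasal receptor clusters. Foxf2, a forkhead factor of brain pericytes, was higher without correction (log2 0.22, SE 0.073; limma, unadjusted p = 0.0161), and no other gene of the list had a p under 0.05. The mean signal of Foxf2 was 6.82, also under that percentile. In the fit with the replicate block Ndufa4l2 joined it (log2 0.41; limma, unadjusted p = 0.0384). The 2 brightest genes of that list, the T-box gene Tbx2 and the sphingosine-1-phosphate receptor gene S1pr3, differed by 0.00115 (SE 0.064) and 0.066 (SE 0.075). Contractile smooth muscle genes, which would accompany Acta2 in arteriolar cells, numbered 16, and 6 of them read under the same percentile. They divided evenly, with 8 of 16 above 0, a median of 0.0040 and 0 at an unadjusted p under 0.05. With the replicate block 1 was lower at that level, the enteric actin gene Actg2 (-0.14; limma, unadjusted p = 0.0484). Their serum response factor gene Srf differed by 0.048 (SE 0.055) and the smoothelin gene Smtn by -0.042 (SE 0.089).

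Recruitment signals of the PDGF, angiopoietin and TGF-beta families had 17 of 19 genes above 0 and a median of 0.048, and 2 had an unadjusted p under 0.05, both higher. These were Pdgfra, the PDGF-A receptor gene carried in the retina by astrocytes, at 0.26 (SE 0.11; limma, unadjusted p = 0.0448), and the endothelial TGF-beta co-receptor gene Eng at 0.29 (SE 0.12; limma, unadjusted p = 0.0430). With the replicate block 4 were higher at that level, as the angiopoietin receptor gene Tek and S1pr1 joined. Of 13 Notch pathway genes 9 lay above 0, with a median of 0.029. Jag1, a ligand of NOTCH3, was higher without correction (log2 0.21, SE 0.059; limma, unadjusted p = 0.00601) and did not overlap between genotypes. Notch2 was the 1 gene of the list without overlap in the other direction, at -0.11 (SE 0.059; limma, unadjusted p = 0.0975), patterns that 4.08% (higher) and 4.35% (lower) of tested clusters showed. Notch1 and the DNA-binding effector gene Rbpj differed by -0.028 (SE 0.054) and 0.012 (SE 0.058). None of these genes passed correction.

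Markers of other cell types were read on the same arrays. Of all tested clusters, 50.7% lay above 0 and 1.69% were higher at an unadjusted p under 0.05 (limma). With the replicate block 4.46% were higher and 4.36% lower at that level. Endothelial markers had 18 of 20 above 0 and a median of 0.10, with array means over the list from 7.72 to 7.94 in the knockout and from 7.62 to 7.77 in the wild type. All 20 read above the median of the receptor clusters and 5 read under their 95th percentile. Of these endothelial genes 5 had an unadjusted p under 0.05, and these 5 were higher: Cd93 by 0.61 (SE 0.12), Cdh5 by 0.54 (SE 0.14), Emcn by 0.50 (SE 0.14), Flt1 by 0.35 (SE 0.14) and Ptprb by 0.27 (SE 0.10). With the replicate block 8 endothelial genes were higher at that level, as Robo4, Mmrn2 and Vwf joined, and Icam2 was lower (-0.13; limma, unadjusted p = 0.0487). Of the 2 brightest endothelial genes, Kdr differed by -0.070 (SE 0.083) and Cldn5 by 0.077 (SE 0.11), and retinal progenitors are also known to transcribe Kdr. Microglia and macrophage markers had 10 of 13 above 0, with array means from 7.85 to 8.08 in the knockout and 7.82 to 7.92 in the wild type. The complement genes C1qa, C1qb and C1qc had unadjusted p under 0.05, higher by 0.21, 0.47 and 0.21 (SE 0.079, 0.13 and 0.089), with 3 genes of the list under the receptors' 95th percentile. In the blocked fit 5 were higher at that level, as Ptprc and Laptm5 joined.

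Lens markers, from tissue outside the retina, had 10 of 12 above 0, with array means from 7.72 to 7.95 in the knockout and 7.63 to 7.75 in the wild type, and 1 gene under the receptors' 95th percentile. Cryaa was higher by 0.53 (SE 0.22; limma, unadjusted p = 0.0436), most of it from replicate number 3. Within replicate numbers 1, 2 and 3 the Cryaa difference was 0.10, 0.21 and 1.28. In the blocked fit 4 lens genes were higher at an unadjusted p under 0.05. With the per-array lens mean as a covariate the Rgs5 difference was 0.24 (SE 0.094) and that of Anpep 0.12 (SE 0.096). Abcc9 stood at 0.16 (SE 0.15), Acta2 at 0.21 (SE 0.12), Pdgfrb at -0.15 (SE 0.11) and Des at -0.11 (SE 0.12). The lens mean was itself higher in the knockout, by 0.15, so this fit cannot separate lens signal from genotype. Fibroblast and periocular mesenchyme markers had 6 of 13 above 0, with array means from 7.19 to 7.33 in the knockout and 7.14 to 7.23 in the wild type. Bgn, the gene of the proteoglycan biglycan, which mural cells also make, differed by 0.59 (SE 0.097; limma, unadjusted p = 0.000212). Of this list, 7 genes read under the receptors' 95th percentile, 2 of them under the receptors' median. In the blocked fit Lox was higher and Fbln1 lower at an unadjusted p under 0.05 as well. Skeletal muscle markers, which bear on Des and Acta2, had 8 of 14 above 0, a median of 0.011 and array means from 7.47 to 7.58 and from 7.47 to 7.56. The part of these other cells in the Rgs5 difference was not tested.

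**Figure D3:**
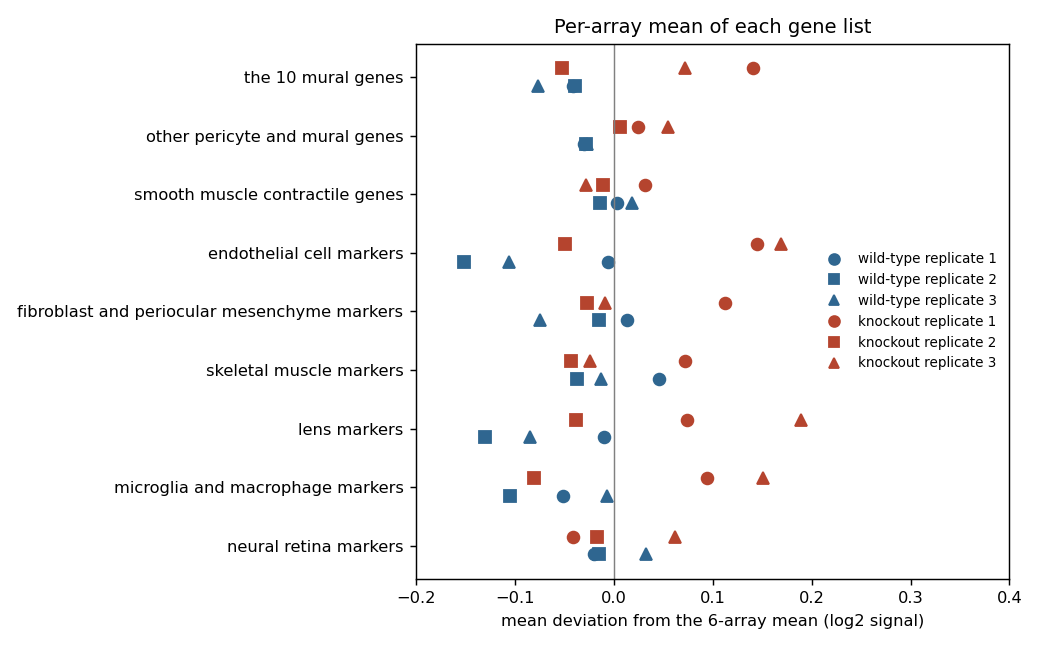
Mean deviation of each gene list from its mean over 6 arrays, on the log2 scale, for every array (wild type blue, knockout red, shape for replicate number). Knockout replicates 1 and 3 stand to the right for the 10 mural genes (0.14 and 0.071), endothelial, lens and microglial lists. Knockout replicate 2 lies left of 0 in each of these (-0.053 for the 10 mural genes). It still lies right of wild-type replicate 2 in the endothelial, lens and microglial lists, by 0.10, 0.092 and 0.025. For other pericyte and mural genes every knockout array (0.025, 0.0062 and 0.055) lies right of every wild-type array (-0.030, -0.029 and -0.027). The contractile and neural retina lists show no such separation.

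Astrocyte markers had 6 of 7 above 0 (median 0.046), with Fabp7 higher by 0.15 (SE 0.061; limma, unadjusted p = 0.0331). Pigment epithelium and melanocyte markers had 7 of 10 above 0 (median 0.038), and Tyr was higher by 0.19 (SE 0.071), joined by Ttr with the replicate block. Of these 10 genes, 3 read under the receptors' 95th percentile, Tyr among them at a mean of 5.85. Erythroid markers had 2 of 6 above 0 (median -0.055). Of these 6, 4 read under the receptors' 95th percentile, so the list measures blood in the tissue poorly. Rhag was lower (-0.17, SE 0.055; limma, unadjusted p = 0.0159) at a level under the receptors' median.

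Across the 6 arrays, the genes whose centred log2 values lay nearest to those of Rgs5 came from outside the 10 members. Likeness was the root mean square difference over the 6 arrays, computed against 19937 other genes, few of which are members. The nearest was C1qb, a microglial complement gene, at 0.060, followed by Adamts16, a secreted metalloprotease gene, at 0.087 and Cdh5, the gene of endothelial VE-cadherin, at 0.094. Ms4a6d, a membrane protein gene of macrophages, stood at 0.107 and Epas1, which encodes the hypoxia-inducible factor HIF-2alpha, at 0.108. C1qb read 9.22, 8.89 and 9.51 in the knockout and 8.75, 8.71 and 8.75 in the wild type. Its knockout arrays stood in the order of Rgs5, which follows from its choice by likeness on these arrays. With 3 arrays per genotype, a ranking of this kind describes these arrays only.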

How the data were processed

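Retinal RNA of 3 knockout and 3 wild-type newborn mice was hybridised to whole-transcript Affymetrix arrays (Mouse Gene 1.0 ST) as the labels' protocols describe. The deposited table holds a log2 signal for each transcript cluster and array. Per the submitters' processing notes, Affymetrix Expression Console and RMA made it, and Transcriptome Analysis Console was used too. RMA forces a common distribution of probe values on all arrays, which removes any change common to most transcripts. Which versions, annotation and test the authors used is not given in the labels.

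A platform annotation named genes for 23410 of 35557 clusters, exactly 1 gene for 21789 of them. The 23410 were fitted with limma 3.58.1 (lmFit, eBayes) in R 4.3.3 with no filter on dim signal. P-values were adjusted by Benjamini-Hochberg with a threshold of 0.05, and intervals are moderated 95% intervals. The fit was tested on simulated data. Tables and figures used pandas 2.3.3 and matplotlib 3.10.9 in Python 3.11.15. Exact permutation of 3 against 3 arrays cannot go below p = 0.1 and was not used. No label ties an array to a scan or slide.

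Members and lists were chosen with earlier results of these data known. Named genes were the members, the 2 brightest genes of each list, up to 5 with an unadjusted p under 0.05, and the 5 nearest to Rgs5, and some are not given. Replicate numbers come from the sample titles, which do not say what they mark. Same-numbered arrays deviated together from their group means (correlations of 0.476, 0.485 and 0.455 for numbers 1, 2 and 3, all over 0.1), so a fit with a replicate block was added throughout. Promoters came from RefSeq (GRCm38.p6). Other settings tried were centring on the median, cyclic loess, a variance trend, array weights, a filter at the 25th percentile of signal, a fit to all rows, a lens covariate and leaving out arrays.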

Additional observations from a re-analysis of the deposited data

How the results depend on the processing

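No member passed correction under any alternative that was run, and the clusters called over the array stayed at 0 except with the replicate block, where 1 was called (limma). Clusters at an unadjusted p under 0.05 numbered 803, and 1331 with all rows in the fit, 2063 with the replicate block and 1240 with the lens covariate, and lay between 636 and 1298 with 1 array left out. The number of members at that level was 2, and 4 with the replicate block, 1 with the lens covariate and 1 with the filter at the 25th percentile, which removed Anpep. It was 1 without wild-type replicate 2 or wild-type replicate 3, and 3 with median centring, with cyclic loess, without knockout replicate 2 and without wild-type replicate 1. At an adjusted p under 0.05 the block changed no call of a member or list gene, and at the unadjusted level it also added Neurod1 (higher) and Rcvrn (lower) of the neural retina markers to the changes given beside the results. The median member difference of 0.063 ranged from 0.022 (without knockout replicate 1) to 0.12 (without knockout replicate 2) with 1 array left out, and was 0.012 with the lens covariate. Rgs5 ranged from 0.40 to 0.63 with 1 array left out and was 0.24 with the lens covariate, and the lowest adjusted p of any member under any alternative was its 0.118 without knockout replicate 2 (limma). Differences near 0 changed sign, and the cause was not tested. Pdgfrb ranged from -0.083 to 0.065 with 1 array left out, being 0.065 without knockout replicate 2, 0.036 without wild-type replicate 3 and 0.046 without replicate 2 of both groups. Notch3 was -0.073 without knockout replicate 1, 0.015 without knockout replicate 2, 0.018 without knockout replicate 3 and 0.0094 without replicate 2 of both groups. Des was -0.12 without knockout replicate 1, 0.049 without knockout replicate 2 and 0.050 without replicate 2 of both groups, and Cspg4 was -0.024 with the lens covariate. Averaging several clusters of a gene was not run, as each member has 1. The number of arrays limits precision. The search for CArG boxes with 1 base off was chosen after seeing the data.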

Other observations

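Within the knockout, replicate 2 gave the lowest signal for 7 of 10 members, where it did so for 37.2% of all tested clusters, and replicate 1 gave the highest of all 6 arrays for 5 members, against 21.5% of clusters. The SD was larger in the knockout than in the wild type for 7 of 10 members, against 63.6% of clusters. Abcc9, Anpep and Vtn were the 3 members with the larger SD in the wild type. These counts describe 6 arrays and were drawn up after the values were seen.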
